A study of Mus musculus with 13 samples.

Results

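The proteasome is the protease of the cytosol and nucleus that breaks down proteins marked with ubiquitin. Genes named Psma to Psmg encode most of its subunits, together with activators, an inhibitor and assembly factors. They were followed here in muscle of wild-type mice and of mice carrying a UCP1 transgene. Members were taken by name: every array probe that is not a control and whose gene name starts with Psma, Psmb, Psmc, Psmd, Psme, Psmf or Psmg followed by a number, names of pseudogenes left out. This gave 62 probes for 49 gene names, of 55681 probes and 34797 gene names on the array. The members are 19 core genes, 20 genes of the base and lid, 4 activators, 5 genes of an inhibitor and assembly factors, and Psmc3ip, which matched by its name only and encodes a recombination protein, not a subunit.

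The RNA came from the gastrocnemius, a mixed calf muscle, of 13 male C57BL/6J mice that had been fed the same purified low fat diet for 12 weeks, with an age of 12 weeks given in the labels. The mice were littermates, 6 of them wild type and 7 carrying the UCP1 transgene (UCP1 transgenic). The titles place the transgene in skeletal muscle, and the promoter that drives it is not given in the labels. UCP1 uncouples respiration from ATP synthesis in the mitochondria of brown fat, and muscle fibres normally lack it. Each mouse was hybridised in Cy5 on an array of its own, from 200 ng of RNA, against a common Cy3 pool of the samples, and the dyes were not swapped. Every value below is a log2 ratio of mouse over pool, and every difference is UCP1 transgenic minus wild type on that scale. The labels call the samples individual mice, so the spread between arrays is that between mice.

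In the ubiquitin-proteasome system, enzymes attach chains of ubiquitin to a protein and the proteasome reads, unfolds and cuts it. The core particle is a barrel of alpha rings, which gate it, and beta rings, which hold the catalytic sites. The regulatory particle caps the barrel: its base carries the ATPases that unfold the substrate, and its lid removes the ubiquitin. Muscle uses the system to turn over contractile proteins, and its activity is known to rise in atrophy. In bulk tissue, fewer cells of a type and less RNA per cell cannot be told apart.

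Ucp1 was 3.23 ± 0.50 (SE) higher in the transgenic group in the limma test (adjusted p = 5.5e-05). On the array labelled wild type 4 the Ucp1 value, 0.45, lay inside the transgenic range of -0.20 to 0.85 and so goes against that label, while the other 5 arrays labelled wild type lay between -4.23 and -2.82. The counts by class of the members, and those of the whole partner and antigen processing lists, are therefore also given without that array. On each array 37.1% to 43.2% of probes were well above background. Skeletal muscle markers were measured on all 13 arrays, with 5 of 7 lower and none higher in the transgenic group. Their summed log2 ratio lay between -2.45 and -0.23 in the transgenic and between 1.30 and 2.84 in the wild-type arrays. The array labelled wild type 4 thus lay above all transgenic arrays in this sum, on the side of its label. Whether that label is right was not tested. Of the white adipocyte markers, 6 of 7 were higher and none lower, with sums of -1.60 to 2.75 against -4.59 to -0.11, and Lep was above background on 0 arrays. Erythrocyte markers (3 of 3 higher) and fibroblast markers (2 of 5 higher) included called genes as well, and so did endothelial (1 of 5 lower) and T cell markers (1 of 2 higher). The part of these cell types in the results below was not tested.

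Most proteasome genes differed little between the groups, and the share of them called lower was near that of all genes tested. Of the 49 members, 47 were bright enough to be tested, 46 of them well above background on all 13 arrays. Psma8, the alpha subunit of the testis proteasome, and Psmb11, the beta subunit of the thymus proteasome, were above background on 0 arrays. Of the 47, 2 were higher, 9 were lower and 36 were not called at an adjusted p under 0.05 over all 17257 genes (limma with Benjamini-Hochberg adjustment). The background is large: among all genes tested, 33.0% were called, 16.8% higher and 16.1% lower. The members' shares were 4.26% called higher and 19.1% called lower, so the share that was lower lay near the background. The share that was higher lay below that of all genes. No test of these shares was made. The median difference of the members was 0.046, against -0.0011 over all genes. The members ranged from -0.48 to 0.29, with 30 positive and 17 negative. The 9 genes that were lower were Psmd1, Psme4, Psmd8, Psma3, Psmd14, Psmb7, Psmc1, Psmd6 and Psmd7, of which Psma3, Psmb7, Psmc1, Psmd6 and Psmd7 turned slightly positive under median centring of the arrays, as described next. The 2 that were higher were Psmc6 and Psmf1. The largest called difference was 1.40-fold and the smallest 1.18-fold.

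For the 36 members that were not called, every 95% interval of the difference lay within 0.5 of 0 on the log2 scale, that is within 1.41-fold. This holds for the scaling of the arrays used here. The groups did not overlap for 3 members, Psmc1, Psmd7 and Psmd8, each with all 7 transgenic arrays below all 6 wild-type arrays. That is 6.38% of the members, where 14.8% of all genes had groups that did not overlap, 7.28% with all transgenic arrays below and 7.48% with all above. Each of the 4 slides holds arrays of both labels. Split by slide, all 11 called members kept their sign on every one, although the calls come from these same arrays. On slide 3 the only wild-type array is the one labelled wild type 4, and on slide 1 it is wild-type array 1. On slide 2 the only transgenic array is transgenic array 3. Without the array labelled wild type 4, 10 of the 11 kept their call. Psmc6 lost its call, while Psmb1 and Psmb10 were then called higher.

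The direction of the small differences depended on how the arrays were scaled. Loess, which removes trends of the ratio with brightness within an array, was used for the calls. Median centring without loess shifted the median difference of all genes to 0.14 and called only 6.03% of genes higher and 1.54% lower. Under it 0 of 47 members were called in either direction, their median was 0.29, and 43 of 47 had a positive difference. The proteasome genes are bright: 35 of 47 fell in the brightest of 4 equal classes of genes, whose own median difference was 0.25 under median centring, -0.0087 with Agilent's log ratio and -0.028 with loess. Relative to the shift of all genes under median centring, all 9 members called lower lay below it (differences from it of -0.38 to -0.065), and both called higher lay above it. These members were called from the same arrays, so their side of the shift is no separate test of the calls. Psma3 (0.024), Psmb7 (0.044), Psmc1 (0.076), Psmd6 (0.048) and Psmd7 (0.032) turned from negative to slightly positive before the shift of all genes was taken off. Psmd1 (-0.19), Psmd8 (-0.079), Psmd14 (-0.051) and Psme4 (-0.24) stayed negative. Of the 11 calls, 10 were kept with Agilent's own log ratio, 9 with the Cy5 channel alone and 6 in the authors' deposited value table.

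**Figure D1:**
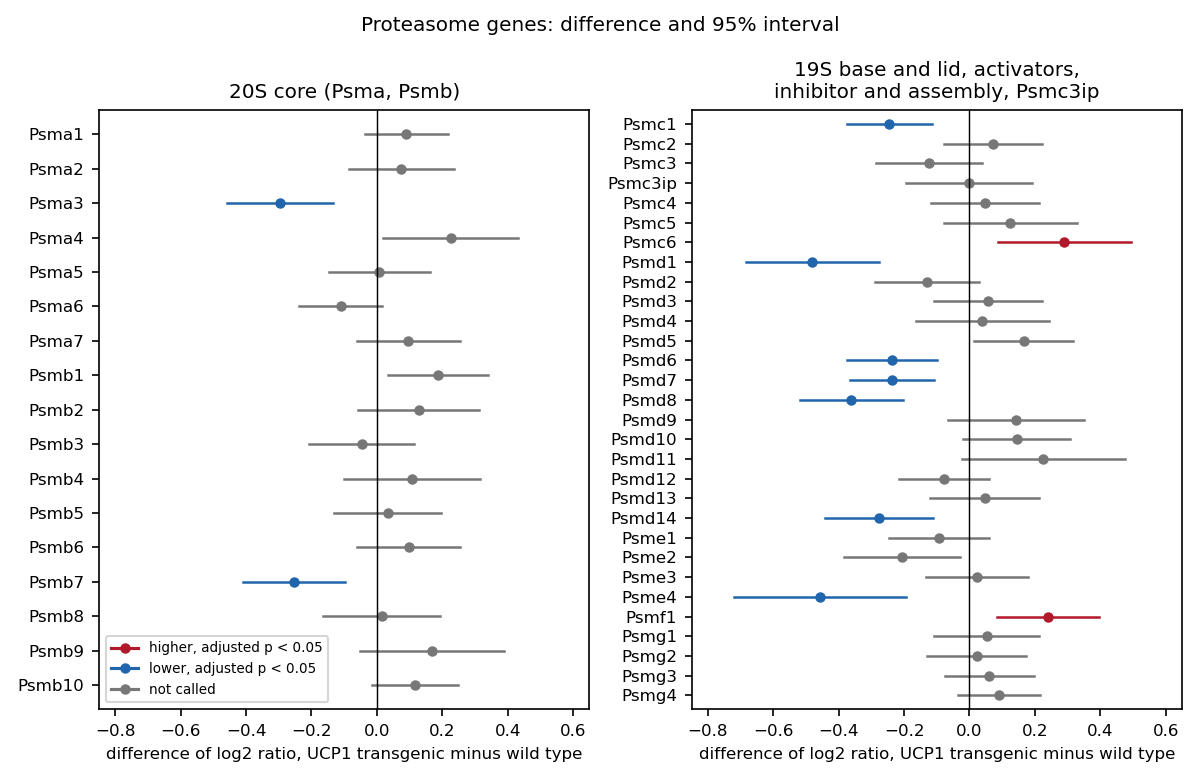
Difference of the log2 ratio, UCP1 transgenic minus wild type, for the 47 tested members (points) with the 95% interval of the limma fit (lines), core genes on the left and the other classes on the right. With loess scaling 9 members lie below 0 and 2 above it past the threshold; under median centring without loess none passed, and Psma3, Psmb7, Psmc1, Psmd6 and Psmd7 were slightly above 0.

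**Figure D2:**
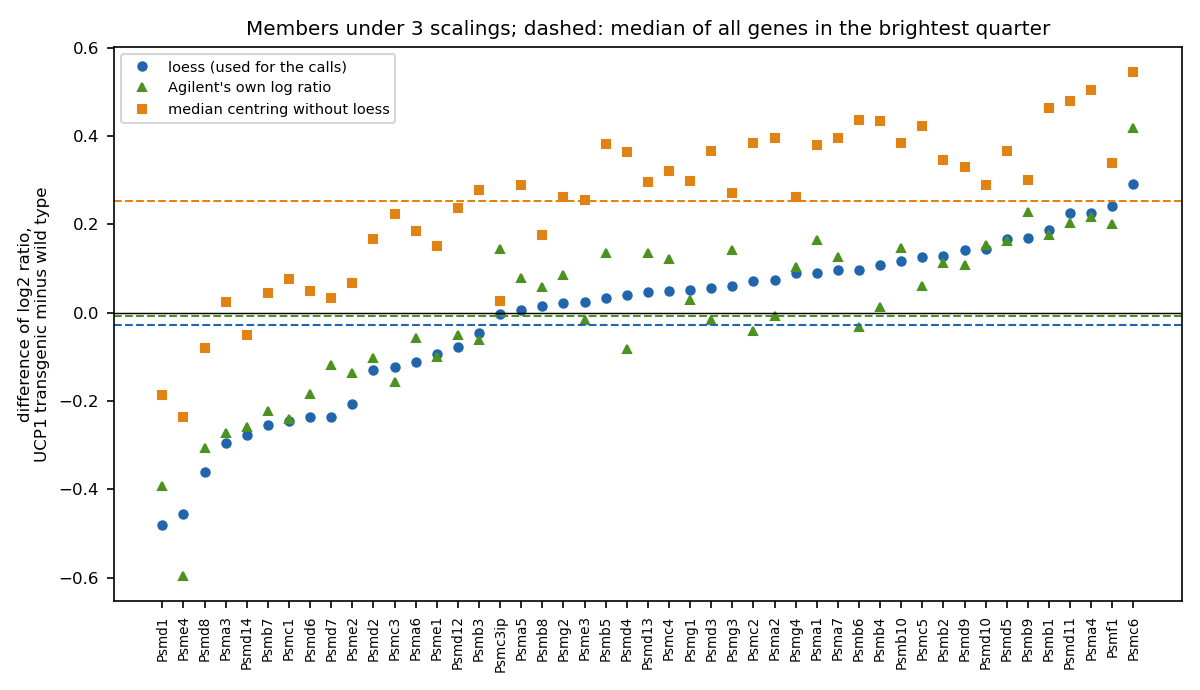
Difference of the log2 ratio of each tested member under 3 scalings of the arrays, ordered by the loess value; dashed lines give the median of all genes in the brightest of 4 classes under each. The median-centred values lie above the loess values as a set, around a dashed line at 0.25, while the order of the members is largely kept and Psmd1 and Psme4 stay the lowest under all 3.

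In the core particle 2 of 17 tested genes were lower and none was higher, with a median difference of 0.090. That is 11.8% called lower, beside 16.1% called lower and 16.8% called higher among all genes. With loess both called genes lay below all the others of their class, and they belong to different rings. The other 15 ranged from -0.11 to 0.23, 13 of them positive, with adjusted p of 0.058 to 0.95. Without the array labelled wild type 4, Psmb1 (0.23, adjusted p = 0.021) and Psmb10 (0.16, adjusted p = 0.046) were called higher, so that 2 were higher and 2 lower. None was called higher or lower under median centring, where the core median was 0.38.

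Psma3 encodes an alpha-ring subunit. Its wild-type arrays read -0.01 at the lowest, 0.14 at the median and 0.22 at the highest, and its transgenic arrays -0.51, -0.12 and 0.00. All but 1 transgenic array lay below every wild-type array. The difference was -0.30 ± 0.08 (SE), 1.23-fold lower (adjusted p = 0.0057), and 0.024 under median centring. The transgenic array 2 was far below the other transgenic arrays, at -0.51, and the gene kept its call without it.

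Psmb7 encodes the constitutive subunit with trypsin-like activity. The 60 bases of its probe, which show what was measured for this gene, are split between exons, since their ends lie far apart in the mm9 genome of the file headers, and hold no stop codon in at least 1 reading frame.
Psmb7 probe (chr2:38468966-38489385, minus strand): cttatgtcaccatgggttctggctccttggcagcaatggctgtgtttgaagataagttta
The wild-type arrays read -0.36, -0.17 and -0.07 (lowest, median and highest) and the transgenic arrays -0.73, -0.46 and -0.26. In 6 of 7 transgenic arrays the value was below every wild-type array. The difference was -0.25 ± 0.07 (SE, adjusted p = 0.012), with 0.044 under median centring and a lost call in the authors' deposited value table (-0.15, adjusted p = 0.19).

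Psma1, an alpha subunit taken as an example, had a difference of 0.090 (95% interval -0.038 to 0.22, adjusted p = 0.28). It was called higher with Agilent's log ratio, at 0.16 with an adjusted p of 0.025. Psma4 (0.23, adjusted p = 0.088) and Psmb1 (0.19, adjusted p = 0.058) were the nearest to a call in the core, and both passed with Agilent's log ratio, with the Cy5 channel alone and in a fit that takes slide as random. The dimmer probe of Psma4 read 0.14 (adjusted p = 0.17 over all probes).

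The catalytic beta subunits come in constitutive and inducible forms. Psmb5 and Psmb6 encode the constitutive chymotrypsin-like and caspase-like subunits, and Psmb8, Psmb9 and Psmb10 the inducible forms that replace Psmb5, Psmb6 and Psmb7 in the immunoproteasome. Psmb6 had a difference of 0.097 (95% interval -0.061 to 0.25, adjusted p = 0.36). Psmb8 had 0.015 (-0.16 to 0.19, adjusted p = 0.92), Psmb9 0.17 (-0.052 to 0.39, adjusted p = 0.24) and Psmb10 0.12 (-0.016 to 0.25, adjusted p = 0.17). For all 4 genes the ranges of the groups overlapped, as in Psmb9, where wild-type arrays ran from -0.54 to 0.08 and transgenic arrays from -0.41 to 0.18.

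Psmb5 was read by a pair of probes that disagreed. The brighter, which stood for the gene, read 0.04, 0.16 and 0.47 in wild-type and 0.10, 0.18 and 0.46 in transgenic arrays, with a difference of 0.033 (adjusted p = 0.78). The dimmer probe, shown here because it alone moved, lies in a stretch with no stop codon in at least 1 reading frame, close to the brighter one.
Psmb5 dimmer probe (chr14:55233161-55233220, minus strand): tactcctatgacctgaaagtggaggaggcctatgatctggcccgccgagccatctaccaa
It ran from -0.96 to -0.42 in wild-type and from -0.46 to -0.02 in transgenic arrays, with a difference of 0.35 ± 0.10 (SE, adjusted p = 0.0080 over all probes). With the mean over both probes Psmb5 was called higher, at 0.19 (adjusted p = 0.0071), so the value of this gene rests on the choice of probe.

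Each inducible subunit was set against the constitutive subunit that it replaces, as the difference of their log2 ratios on each array. The 3 pairs were compared with exact permutation tests over the 13 arrays, two-sided, with Benjamini-Hochberg adjustment over the 3. Psmb10 minus Psmb7 read -0.21 to 0.35 in wild-type arrays, with a mean of 0.014 ± 0.20 (SD, n = 6). In the transgenic arrays it read 0.14 to 0.73, with a mean of 0.38 ± 0.18 (SD, n = 7). The groups overlapped, and the highest wild-type value was that of the array labelled wild type 4. The difference was 0.37 (95% interval 0.14 to 0.60, exact permutation p = 0.0082, adjusted 0.024), made up of Psmb7, which was lower, and Psmb10, which was not called. It was 0.44 without the array labelled wild type 4 (exact permutation, adjusted p = 0.0076). The call ended without transgenic array 5, 6 or 7 (exact permutation, adjusted p = 0.052 for each) and with the Cy5 channel alone (adjusted p = 0.054).

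The other pairs did not differ past the threshold. Psmb9 minus Psmb6 had a difference of 0.072 (95% interval -0.16 to 0.31, exact permutation, adjusted p = 0.78). Psmb8 minus Psmb5 had a difference of -0.019 (95% interval -0.34 to 0.30, exact permutation, adjusted p = 0.90), with the brighter Psmb5 probe. Without the array labelled wild type 4 these differences were 0.11 and 0.065 (exact permutation, adjusted p = 0.53 and 0.63). A p that misses the threshold does not show that the members of a pair moved alike, and the interval of the last pair still holds differences near 0.30 in either direction.

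**Figure D3:**
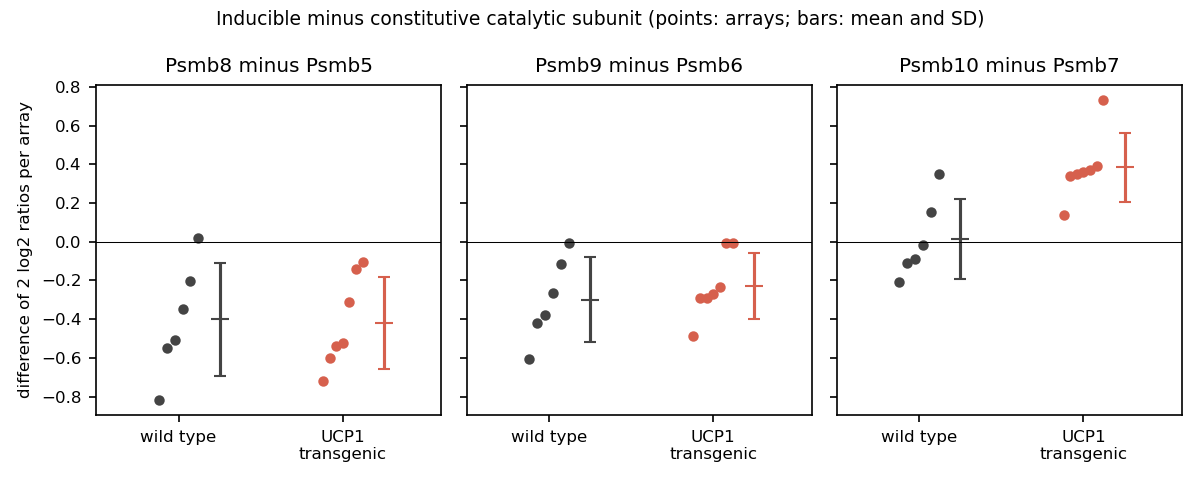
Difference of the log2 ratios of the inducible and the constitutive catalytic subunit on each array (points), with the group mean and SD (bars), for 3 pairs in 6 wild-type and 7 UCP1 transgenic arrays. For Psmb10 minus Psmb7 the transgenic mean is 0.38 and the wild-type mean 0.014, with overlap of the groups, while the groups share their range in the other pairs.

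In the base and lid of the regulatory particle 1 of 20 genes was higher and 6 were lower, with a median difference of 0.043. That is 30.0% called lower and 5.00% called higher, beside 16.1% and 16.8% of all genes. No test of that share was made. Psmd5, Psmd9 and Psmd10 are counted here by name, although they encode chaperones that assemble the base. The ATPases Psmc1 to Psmc6 held 1 higher and 1 lower gene, and the non-ATPases Psmd1 to Psmd14 held 0 higher and 5 lower of 14. The 13 that were not called ranged from -0.13 to 0.23. Under median centring none was called, and 17 of the 20 were positive. Without the array labelled wild type 4, the counts were 6 lower and 0 higher, and the median was 0.018. The sign of the median was not stable, as it was -0.046 with Agilent's log ratio, -0.010 without wild-type array 6 and just below 0 without transgenic array 7.

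Psmd1, a scaffold subunit of the base that docks the ubiquitin receptor Adrm1, had the largest difference of the members with loess and the brightest probes. Psme4, described with the activators, had a larger one than Psmd1 with Agilent's log ratio (-0.60 against -0.39), under median centring (-0.24 against -0.19), in the authors' deposited value table (-0.47 against -0.42) and with offset 10 (-0.50 against -0.48). The wild-type arrays of Psmd1 read 0.09, 0.38 and 0.70 (lowest, median and highest) and its transgenic arrays -0.31, -0.19 and 0.18. In 5 of 7 transgenic arrays it lay below every wild-type array. The difference was -0.48 ± 0.10 (SE), 1.40-fold lower (adjusted p = 7.0e-04), and -0.54 without the array labelled wild type 4. Within the 4 slides it lay between -0.57 and -0.30, where -0.30 is from slide 3, whose only wild-type array is that one. The -0.57 is from slide 2, whose only transgenic array is transgenic array 3.

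Psmd8 encodes the lid subunit that is the last to join it. Its probe is shown because its groups did not overlap.
Psmd8 probe (chr7:29961170-29962121, minus strand): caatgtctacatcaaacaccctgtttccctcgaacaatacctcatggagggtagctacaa
The wild-type arrays read 0.05, 0.08 and 0.19 and the transgenic arrays -0.53, -0.25 and -0.07. Every transgenic array lay below every wild-type array, and the transgenic arrays were the more spread. The difference was -0.36 ± 0.08 (SE), 1.28-fold lower (adjusted p = 9.5e-04), and -0.079 under median centring.

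Psmd14 encodes the lid enzyme that cuts ubiquitin chains off the substrate. Its probe was the following.
Psmd14 probe (chr2:61599058-61599117, plus strand): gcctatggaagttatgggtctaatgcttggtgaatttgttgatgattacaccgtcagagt
Wild-type arrays read 0.05, 0.25 and 0.32 and transgenic arrays -0.35, -0.01 and 0.12. The ranges overlapped at their edges, with 5 of 7 transgenic arrays below every wild-type array. The difference was -0.28 ± 0.08 (SE, adjusted p = 0.010).

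Psmc1, one of the ATPases of the base ring, was read by a pair of probes that moved alike, of which the dimmer is shown.
Psmc1 dimmer probe (chr12:101361283-101361342, plus strand): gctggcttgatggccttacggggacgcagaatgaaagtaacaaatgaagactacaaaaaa
The brighter probe read -0.06, 0.05 and 0.16 in wild-type and -0.30, -0.23 and -0.09 in transgenic arrays, with no overlap. The difference was -0.24 ± 0.06 (SE, adjusted p = 0.0046), and -0.18 with the dimmer probe (adjusted p = 0.027 over all probes). Under median centring Psmc1 read 0.076, and in the authors' deposited value table its call was lost (-0.14, adjusted p = 0.16).

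Psmd6 and Psmd7, both lid subunits, were named after their values were seen. The Psmd6 probe was the following.
Psmd6 probe (chr14:14946703-14946762, minus strand): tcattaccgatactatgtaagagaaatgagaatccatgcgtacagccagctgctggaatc
Psmd6 was lower by -0.24 ± 0.07 (SE, adjusted p = 0.0083), with 6 of 7 transgenic arrays below all wild-type arrays, and read 0.048 under median centring. Psmd7, the partner of Psmd14 in the deubiquitinating part of the lid, was lower by -0.24 ± 0.06 (SE, adjusted p = 0.0055) with no overlap, and read 0.032 under median centring. Wild-type arrays of Psmd7 ran from -0.09 to 0.09 and transgenic arrays from -0.43 to -0.14. Both lost their call in the authors' deposited value table, at -0.16 and -0.17, with adjusted p of 0.10 and 0.080.

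Psmc6, another ATPase of the base ring, moved the other way. Its wild-type arrays read -0.15, -0.08 and 0.11 and its transgenic arrays -0.18, 0.22 and 0.51. In 6 of 7 transgenic arrays the value was above every wild-type array, by little in 1 of them, while transgenic array 2 was the lowest of all 13. The difference was 0.29 ± 0.10 (SE, adjusted p = 0.026). Psmc6 kept its call when 7 of the 13 arrays were left out in turn and lost it with the others, the array labelled wild type 4 among them (0.27, adjusted p = 0.053), at an adjusted p of up to 0.060.

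Psmd11, a lid subunit known to promote assembly of the whole particle in stem cells, had a difference of 0.23 (95% interval -0.024 to 0.47, adjusted p = 0.16). It was called higher with the slide as a fixed block, at 0.29 (adjusted p = 0.0013). Psmd4, a ubiquitin receptor of the regulatory particle, had a difference of 0.039 (95% interval -0.16 to 0.24, adjusted p = 0.79). Psmd9, an assembly chaperone of the base, was not called with its brighter probe (0.14) and was called higher with its other probe alone (0.22, adjusted p = 0.028 over all probes).

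**Figure D4:**
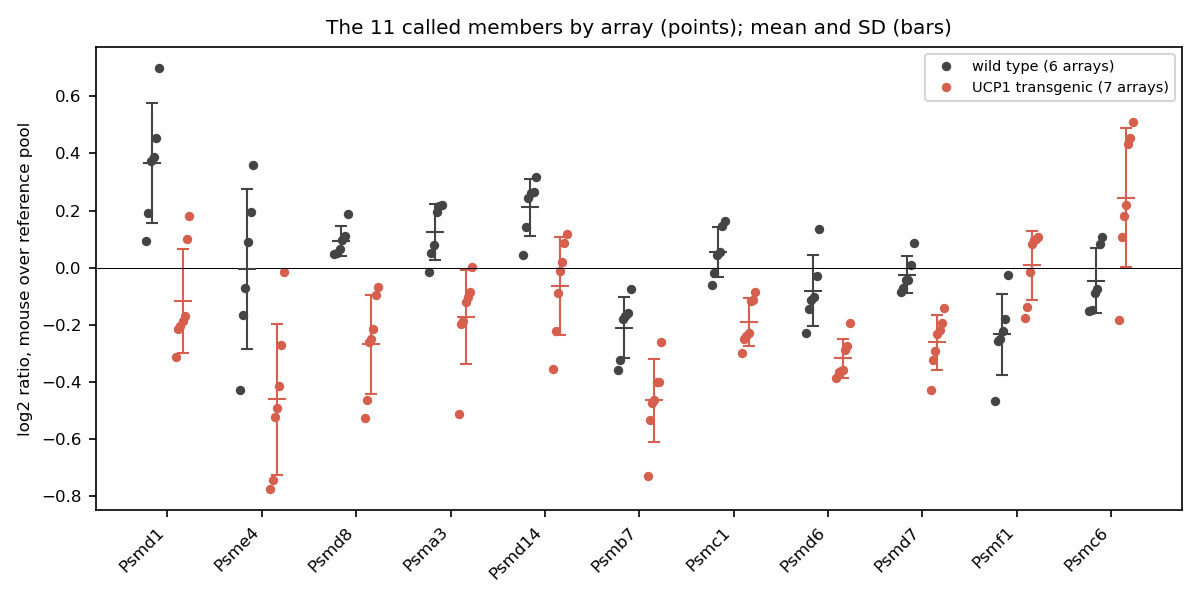
Log2 ratio of mouse over reference pool on each array (points) for the 11 called members, with the group mean and SD (bars), in 6 wild-type and 7 UCP1 transgenic arrays, loess scaling. Psmc1, Psmd7 and Psmd8 show no overlap between groups; for Psma3, Psmb7, Psmc1, Psmd6 and Psmd7 the difference of the means turned slightly positive under median centring.

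Activators open the core in place of the regulatory particle. Of the 4 activator genes 1 was lower, none higher, and the median difference was -0.15. Among all genes 16.1% were lower and 16.8% higher. Without the array labelled wild type 4 the activator counts were the same, with a median of -0.13. Psme4 encodes the large nuclear activator PA200, which takes part in the breakdown of histones. It was read by a pair of probes at different places of the gene, both on the plus strand and both printed since they agree in direction.
Psme4 brighter probe (chr11:30756055-30756114, plus strand): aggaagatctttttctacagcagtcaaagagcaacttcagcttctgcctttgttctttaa
Psme4 dimmer probe (chr11:30710953-30711012, plus strand): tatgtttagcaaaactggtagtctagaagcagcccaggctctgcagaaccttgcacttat
The brighter probe read -0.43, 0.01 and 0.36 in wild-type and -0.77, -0.49 and -0.01 in transgenic arrays, so that the groups overlapped. Its difference was -0.46 ± 0.13 (SE), 1.37-fold lower (adjusted p = 0.0080), and -0.24 under median centring. The dimmer probe had -0.50 ± 0.09 (SE, adjusted p = 2.5e-04 over all probes), with wild-type arrays from -0.05 to 0.35 and transgenic arrays from -0.65 to -0.12, with no overlap.

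Psme1 and Psme2 encode the alpha and beta subunits of PA28, the activator that interferon induces, and Psme3 the nuclear PA28 gamma. Psme2 had a difference of -0.21 (95% interval -0.38 to -0.029, adjusted p = 0.069), and 5 of 7 transgenic arrays lay below all wild-type arrays. Without transgenic array 6 it was called lower (-0.24, adjusted p = 0.031), so that the count of activators called lower was then 2. The other measured probe of Psme2 read -0.11 (adjusted p = 0.29 over all probes). Psme1 had a difference of -0.093 (-0.25 to 0.059, adjusted p = 0.36). Psme3 read high against the pool in both groups, between 0.73 and 1.05 in the wild-type arrays and between 0.67 and 1.08 in the transgenic arrays, with a difference of 0.024 (-0.13 to 0.18, adjusted p = 0.84). As the pool holds these samples and the dyes were not swapped, a high ratio in both groups is not a level of the gene.

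Among the inhibitor and assembly genes 1 of 5 was higher and none lower, with a median difference of 0.061. Among all genes 16.8% were higher and 16.1% lower. No test of the shares of this class was made. Psmf1 encodes PI31, a protein known to bind and inhibit the core in the test tube. Its probe was the following.
Psmf1 probe (chr2:151555353-151555412, minus strand): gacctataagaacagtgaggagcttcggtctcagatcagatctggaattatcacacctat
Psmf1 read -0.46, -0.24 and -0.02 in wild-type and -0.18, 0.08 and 0.11 in transgenic arrays, with 5 of 7 transgenic arrays above every wild-type array. The difference was 0.24 ± 0.08 (SE, adjusted p = 0.018). The call was lost without wild-type array 3 (0.19, adjusted p = 0.054), with Agilent's log ratio (0.20, adjusted p = 0.32) and in the authors' deposited value table (0.21, adjusted p = 0.11). It was also lost under median centring (0.34, adjusted p = 0.087). The same held for the slide as a fixed block without the array labelled wild type 4 (0.22, adjusted p = 0.088). Psmg1 to Psmg4, the chaperones that build the alpha ring, ranged from 0.022 to 0.090 and were not called. Psmc3ip, which is no subunit, had a difference of -0.0025 (adjusted p = 0.99).

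Genes that work with the proteasome were taken from a list of 29 found on the array, of which 28 were tested and Ddi1 was too dim. Among all genes tested 16.8% were higher and 16.1% lower. In this list 4 were higher and 2 lower, with a median of -0.027 (0.012 without wild-type array 3). No test of the list's shares was made. Without the array labelled wild type 4 its counts were the same, with a median of -0.019. The count of lower genes was 4 without wild-type array 2, 1 without wild-type array 5 and 0 under median centring. Of 5 assembly and transcription genes none was called. Pomp, the chaperone that matures the core, had a difference of -0.14 (adjusted p = 0.15), and was called lower with Agilent's log ratio (-0.18, adjusted p = 0.017) and without wild-type array 2 (-0.21, adjusted p = 0.022). The dimmer probe of Pomp read -0.069 (adjusted p = 0.60 over all probes). Nfe2l1, the transcription factor that raises proteasome genes when activity falls, had 0.13 (adjusted p = 0.29), and Nfe2l2, the factor of the antioxidant response, -0.021 (adjusted p = 0.91). Nfe2l2 read -0.62 on the array labelled wild type 4, the lowest of all 13 arrays. Without that array its difference was -0.15 (adjusted p = 0.16).

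Of 15 receptors, shuttles and deubiquitinases 2 were higher and 2 lower, beside 16.8% and 16.1% of all genes. Zfand5 encodes a zinc finger protein that binds the proteasome and is known to be induced in atrophying muscle. Its brightest probe ran from -0.80 to -0.08 in wild-type and from 0.01 to 0.53 in transgenic arrays, with a difference of 0.54 ± 0.11 (SE, adjusted p = 5.7e-04). The gene had 4 probes, the others with differences of 0.16, 0.0023 and -0.26, and the mean over them (0.11, adjusted p = 0.13) was not called. Zfand2a, a zinc finger protein induced by arsenite and other proteotoxic stress, ran from -0.39 to 0.04 and from 0.03 to 0.20, with a difference of 0.35 ± 0.07 (SE, adjusted p = 7.1e-04). The lower genes, named after their values were seen, were Shfm1 (now Sem1), a small lid subunit outside the naming rule, at -0.24 (adjusted p = 0.0064), and Ube3c, a ubiquitin ligase bound to the proteasome, at -0.23 (adjusted p = 0.022). Shfm1 read 0.093 under median centring, and Ube3c lost its call without wild-type array 5 (-0.17, adjusted p = 0.068).

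Of 8 genes for ubiquitin, its activating enzymes and the VCP segregase 2 were higher and 0 lower, beside 16.8% and 16.1% of all genes. Ubb, a gene for polyubiquitin, was not called with its brighter probe (-0.15, adjusted p = 0.15), and its dimmer probe read 0.18 (adjusted p = 0.094 over all probes). Rps27a, which encodes ubiquitin fused to a ribosomal protein, was higher by 0.59 ± 0.10 (SE, adjusted p = 1.2e-04) with no overlap of the groups. Its other measured probe was also higher, by 0.24 (adjusted p = 0.011 over all probes). Nploc4, a cofactor of VCP and named after its value was seen, was higher by 0.32 ± 0.07 (SE, adjusted p = 7.8e-04) with no overlap.

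**Figure D5:**
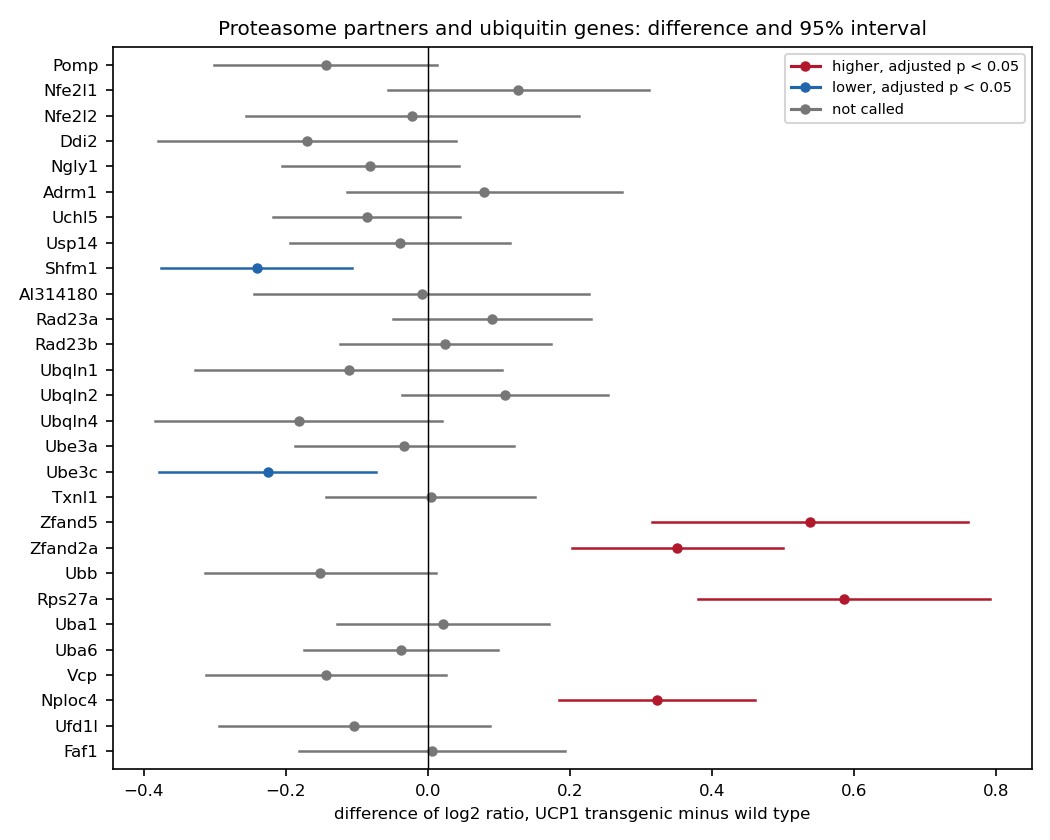
Difference of the log2 ratio, UCP1 transgenic minus wild type, for 28 tested partner and ubiquitin genes (points) with the 95% interval of the limma fit (lines), loess scaling. Rps27a, Zfand5, Zfand2a and Nploc4 lie above 0 past the threshold; Shfm1, called lower here, read 0.093 under median centring.

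Antigen processing genes were read beside the immunoproteasome subunits, since both feed peptides to class I molecules. Of 12 listed genes 11 were tested, as Tap1 was above background on 0 arrays. The chaperones Canx (0.45, adjusted p = 4.1e-04) and Calr (0.28, adjusted p = 0.027) were higher and none was lower. Of all genes tested, 16.8% were higher and 16.1% lower. The class I genes H2-K1 (0.093, adjusted p = 0.41), H2-D1 (0.14, adjusted p = 0.23) and B2m (-0.068, adjusted p = 0.57) were not called, nor was the class I regulator Nlrc5 (0.012, adjusted p = 0.94). Of the macrophage and leukocyte markers 1 of 7 was lower and none higher, with sums of -1.82 to -0.55 in transgenic and -1.92 to 1.27 in wild-type arrays. Calr lost its call without the array labelled wild type 4 (0.22, adjusted p = 0.071), and Tap2 gained one (0.22, adjusted p = 0.044). The counts of the list without that array were thus the same.

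The promoters of the members were read from RefSeq (GRCm38.p6), 250 bases before each start, for the 40 members with an entry. The letters searched, on both strands, were TGANNNNGC for the antioxidant response element, to which Nfe2l1 and Nfe2l2 bind, TGATGNAA for the element of C/EBP and ATF factors, and TTTC followed after any 2 bases by TTTC for the interferon-stimulated element. TGANNNNGC was found in 16 of 40 members (40.0%) and in 38.7% of 27025 genes of the table. TGATGNAA was found in 1 of 40 members, Psmd13 (2.50%), and in 3.91% of genes. The interferon-stimulated letters were found in 3 of 40, Psmb3, Psmd4 and Psmd9 (7.50%), and in 3.46% of genes. The members' shares were thus read beside those of all genes, with no test, and a match of letters is not a site.

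Of the 9 called members with a promoter entry, 2 held TGANNNNGC, Psmd1, which was lower, and Psmc6, which was higher. Their promoters are printed with those of Psmd8 and Psme4, the next largest differences, 5′ to 3′ on the strand of the gene, with the bases that matched TGANNNNGC on either strand in capitals.
Psmd1 promoter (chr1:86064369-86064618, plus strand): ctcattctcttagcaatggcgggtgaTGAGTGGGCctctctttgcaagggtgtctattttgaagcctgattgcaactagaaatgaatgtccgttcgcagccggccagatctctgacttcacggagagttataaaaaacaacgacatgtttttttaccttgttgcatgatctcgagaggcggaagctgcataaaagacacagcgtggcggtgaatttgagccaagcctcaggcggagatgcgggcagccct
Psmc6 promoter (chr14:45329574-45329823, plus strand): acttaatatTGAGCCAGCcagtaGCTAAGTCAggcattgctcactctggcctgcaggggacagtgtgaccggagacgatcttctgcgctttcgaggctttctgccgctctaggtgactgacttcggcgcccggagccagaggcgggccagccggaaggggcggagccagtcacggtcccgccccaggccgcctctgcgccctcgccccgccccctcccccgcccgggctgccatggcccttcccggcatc
Psmd8 promoter (chr7:29180674-29180923, minus strand): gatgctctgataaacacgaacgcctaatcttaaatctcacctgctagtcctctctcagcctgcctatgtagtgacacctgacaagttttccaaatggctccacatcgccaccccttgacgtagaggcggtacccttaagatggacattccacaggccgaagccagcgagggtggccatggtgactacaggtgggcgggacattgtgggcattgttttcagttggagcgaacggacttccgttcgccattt
Psme4 promoter (chr11:30771525-30771774, plus strand): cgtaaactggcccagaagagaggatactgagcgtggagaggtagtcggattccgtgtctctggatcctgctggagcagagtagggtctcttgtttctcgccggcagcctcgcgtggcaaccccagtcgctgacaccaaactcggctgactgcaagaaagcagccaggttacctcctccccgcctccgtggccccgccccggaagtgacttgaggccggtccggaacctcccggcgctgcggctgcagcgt
Counted from the transcription start, with the base before it at -1, the match of Psmd1 began at -224, and those of Psmc6 began at -241 and, on the other strand, at -227. In Psmd8 and Psme4 these letters were not in this window.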

How the data were processed

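RNA of 13 mice was measured on 2-colour Agilent arrays, 7 UCP1 transgenic and 6 wild type, grouped by their labels. Per the file headers, the deposited scanner files come from Agilent Feature Extraction 10.5.1.1 and give, for each spot and channel, the mean and the local background as intensity, together with a log10 ratio and other values that serve as flags. The deposited value table, used as an alternative, was taken as log2 values of the authors. Its normalization is not given in the sources used here. Mean signals were corrected by normexp (offset 50) and log2 ratios scaled by loess within arrays with limma 3.58.1 in R 4.3.3. Controls and outlier flags were left out. Kept were the 22716 of 55681 probes whose Cy5 signal was marked well above background on 6 or more of the 13 arrays, and the brightest kept probe stood for each of 17257 gene names. Of the members, 12 had several probes. Groups were compared with lmFit and eBayes, without a covariate, two-sided, with Benjamini-Hochberg adjustment over all genes and a threshold of 0.05. Errors of differences are standard errors of that fit. Adjusted p of single probes are over all kept probes. Pairs of subunits were compared by exact permutation, with intervals from a linear model on the same values. The number of arrays limits the precision. Ratios of different probes are not compared as levels. Scripts were tested on simulated data. Coordinates of probes are mm9, per the file headers; promoters are those of RefSeq.

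The members and lists were chosen with earlier results of these data known. Some genes of the partner and antigen processing lists are not reported here and are in no count of these lists. Named with full values were up to 4 called members with the largest differences per class, the catalytic subunits with their inducible forms, the activators, Psmd11, Psmd4, Psmd14, Psmc1 and Psma1 as examples, of the partner list Pomp, Nfe2l1, Nfe2l2 and up to 2 called genes per group with the largest differences, and genes whose probes passed in opposite directions, of which there were none. Other genes named were chosen after their values were seen. Alternatives were other scalings, offsets, filters and probe choices, the slide or the replicate number as a block, and each array left out in turn.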

Additional observations from a re-analysis of the deposited data

Results flagged for a closer look

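Of 94 groups of arrays of tested members, 8 held an array far from the rest by Dixon's criterion, and chance gives about 1 in 20. Psma3 was lowest in transgenic array 2 (-0.51), Psmb6 in transgenic array 7 (-0.10), Psmd3 in transgenic array 6 (-0.58), Psmd12 in transgenic array 3 (-0.32) and Psmg3 in wild-type array 3 (-0.15). Psmb5 was highest in wild-type array 6 (0.47), Psmb10 in the array labelled wild type 4 (0.029) and Psmd10 in wild-type array 1 (0.19). Of these genes only Psma3 was called, and without transgenic array 2 its call was kept. Psmb10 was called higher without the array labelled wild type 4 (0.16, adjusted p = 0.046).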

How the results depend on the processing

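With offset 10, no filter on dim probes, a filter on all 13 arrays or outlier spots kept, no result changed its call. Median centring without loess changed most: 1041 of all genes were higher and 265 lower, 0 core genes were lower (median 0.38), 0 base and lid genes were higher or lower (0.29), 0 activators were lower (0.11), 0 inhibitor and assembly genes were higher (0.27), 2 partners were higher and 0 lower (0.18), and 0 antigen processing genes were higher. There Psma3 (0.024), Psmb7 (0.044), Psmc1 (0.076), Psmd6 (0.048), Psmd7 (0.032) and Shfm1 (0.093) changed sign. With every probe fitted on its own and loess, a dimmer probe of Zfand5 read -0.26. Agilent's log ratio gave 3 core genes higher, a base and lid median of -0.046, 0 inhibitor and assembly genes higher and 4 partners lower. The Cy5 channel alone gave 2 core genes and 0 base and lid genes higher, and Psmb10 minus Psmb7 at 0.40 (exact permutation, adjusted p = 0.054). The authors' value table gave 1 core gene lower (median 0.17), 3 base and lid genes lower (0.11), 0 inhibitor and assembly genes higher and 0 partners lower. The mean over probes gave 2 core and 2 base and lid genes higher, the slide as a fixed block 1 and 2, and the slide as a random block 2 core genes higher. The pair tests were not run with the random block. Without wild type 4 and with the slide as a fixed block, added after seeing the data, 1 core gene, 2 base and lid genes and 0 inhibitor and assembly genes were higher. The causes were not tested.

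The titles number the replicates, but same-numbered arrays did not deviate together (correlations -0.23 to 0.23 over 6 pairs), so the numbers were not taken as pairs. With the replicate block 1 core gene was higher, all 11 called members kept their call, and Psmb10 minus Psmb7 was 0.37 with an adjusted p of 0.28 (exact permutation within pairs). With 6 pairs that test gives no p below 0.031, or 0.094 after adjustment where 1 of the 3 pairs differs.

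With each array left out in turn the ranges were 2579 to 2930 genes higher and 2532 to 2774 lower over all genes, 0 to 2 core genes higher and 2 lower in each (median 0.052 to 0.098), 0 to 1 base and lid genes higher and 6 to 7 lower (-0.010 to 0.050), 1 to 2 activators lower (-0.17 to -0.13), 0 to 1 inhibitor and assembly genes higher (0.050 to 0.087), 4 partners higher in each and 1 to 4 lower (-0.052 to 0.012), 1 to 2 antigen processing genes higher, 0.31 to 0.44 for Psmb10 minus Psmb7, 0.0099 to 0.13 for Psmb9 minus Psmb6 and -0.10 to 0.065 for Psmb8 minus Psmb5. Differences have a standard error of 0.060 to 0.13, which limits what can be called. Psma8 and Psmb11 were not measurable above background.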
